A study of Saccharomyces cerevisiae x Saccharomyces kudriavzevii with 6 samples.

Results

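The hexose transporters *HXT1* to *HXT7*, the galactose permease *GAL2* and the glucose sensors *SNF3* and *RGT2* were followed in wine fermentations at 12°C and 28°C. These 10 genes were selected by systematic ORF name, and all 10 had a row among the 5616 ORFs of the table. RNA came from VIN7 and W27, allotriploid hybrids of *S. cerevisiae* and *S. kudriavzevii* that are sold as wine yeasts, grown in Tempranillo must and taken when exponential growth began. For each strain, 3 dual-colour arrays (A, B and C) compared RNA of the 12°C fermentation with RNA of the same strain at 28°C, so the 28°C fermentation is the control on every array. The 12°C sample carried Cy5 except on VIN7 C, where the dyes were swapped. Each value is a log2 ratio, so 1 stands for a 2-fold higher and -1 for a 2-fold lower signal at 12°C.

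The spots hold ORFs of the *S. cerevisiae* strain S288c, and a value can mix signal from the *S. cerevisiae* and *S. kudriavzevii* alleles of a gene. The share of each allele in that signal was not measured on these arrays. The hybrids have lost parts of the *S. kudriavzevii* genome, in both strains including parts of chromosome IV. By their systematic names, 5 of the 10 genes (*HXT3*, *HXT6*, *HXT7*, *SNF3* and *RGT2*) lie on that chromosome. The arrays read RNA of whole cultures, so fewer cells expressing a gene and less RNA per cell cannot be told apart. The labels call the 3 arrays of a strain biological replicates, whereas the methods describe fewer fermentations than arrays, so p-values measure only the spread between arrays, which may be partly technical.

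Yeast takes up glucose and fructose, the sugars of grape must, by facilitated diffusion through the Hxt proteins. These carriers differ in affinity, and the cell exchanges them as the sugar concentration falls. At the plasma membrane, Rgt2 senses high and Snf3 low glucose. Both resemble transporters but act as receptors, and their signal removes the corepressors that hold the repressor Rgt1 on the *HXT* promoters. *HXT1* and *HXT3* encode low-affinity carriers induced by glucose, *HXT2* and *HXT4* carriers used at lower glucose, and *HXT6* and *HXT7* nearly identical high-affinity carriers repressed when glucose is plentiful. *HXT5* is expressed in slowly growing or starved cells. *GAL2* encodes the galactose carrier, which also transports glucose.

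The 2 strains' arrays did not share a common scale or a common pattern. Over all genes the SD of the log2 ratio ranged from 0.39 on VIN7 C to 1.71 on VIN7 B, and 3800 to 5565 genes were measured on an array. W27 A ran against the other W27 arrays over genes (Pearson r = -0.14 with W27 B and -0.19 with W27 C, whereas B and C gave 0.79). VIN7 A was closer to W27 B and W27 C (r = 0.66 and 0.61) than to VIN7 B and VIN7 C (0.36 and 0.37), and VIN7 B and VIN7 C gave 0.06. On VIN7 A and W27 B the signs of 10 of 10 members were the same. The 10 genes had 56 of 60 possible values, and 7 of them were measured on all 6 arrays. *HXT5*, *HXT6* and *RGT2* were missing on VIN7 B, and *RGT2* also on W27 C.

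No transporter or sensor was called at 12°C. By limma with Benjamini-Hochberg adjustment over all genes and a threshold of 5%, 0 of the 10 were called in VIN7 (0% of the 5100 genes tested were called) and 0 of the 10 in W27 (0% of 4894). At an unadjusted p under 0.05, again 0 of the 10 stood out in either strain, against 5.47% of all genes in VIN7 and 7.27% in W27. One-class SAM (Significance Analysis of Microarrays), the kind of test the study used for its gene lists, called 11 genes in VIN7 and 5 in W27, among them 0 of the 7 and 9 members it could use. The adjusted p of the 10 genes lay between 0.612 and 0.986 in VIN7 and between 0.669 and 0.989 in W27. A call was hard to reach on arrays of such unequal spread, and the lack of one does not show that these genes kept their level. Values far from 0 lay mostly on the arrays of wide spread. On VIN7 B, 4 of 7 members were at least 2-fold higher and 1 lower, against 24.9% and 24% of all genes. On W27 A, 7 of 10 were higher and 1 lower, against 23.3% and 26.7%. On W27 B, 0 of 10 were higher and 4 lower, against 12.8% and 16.2%. On VIN7 C, 0 of 10 reached 2-fold in either direction.

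**Figure D1:**
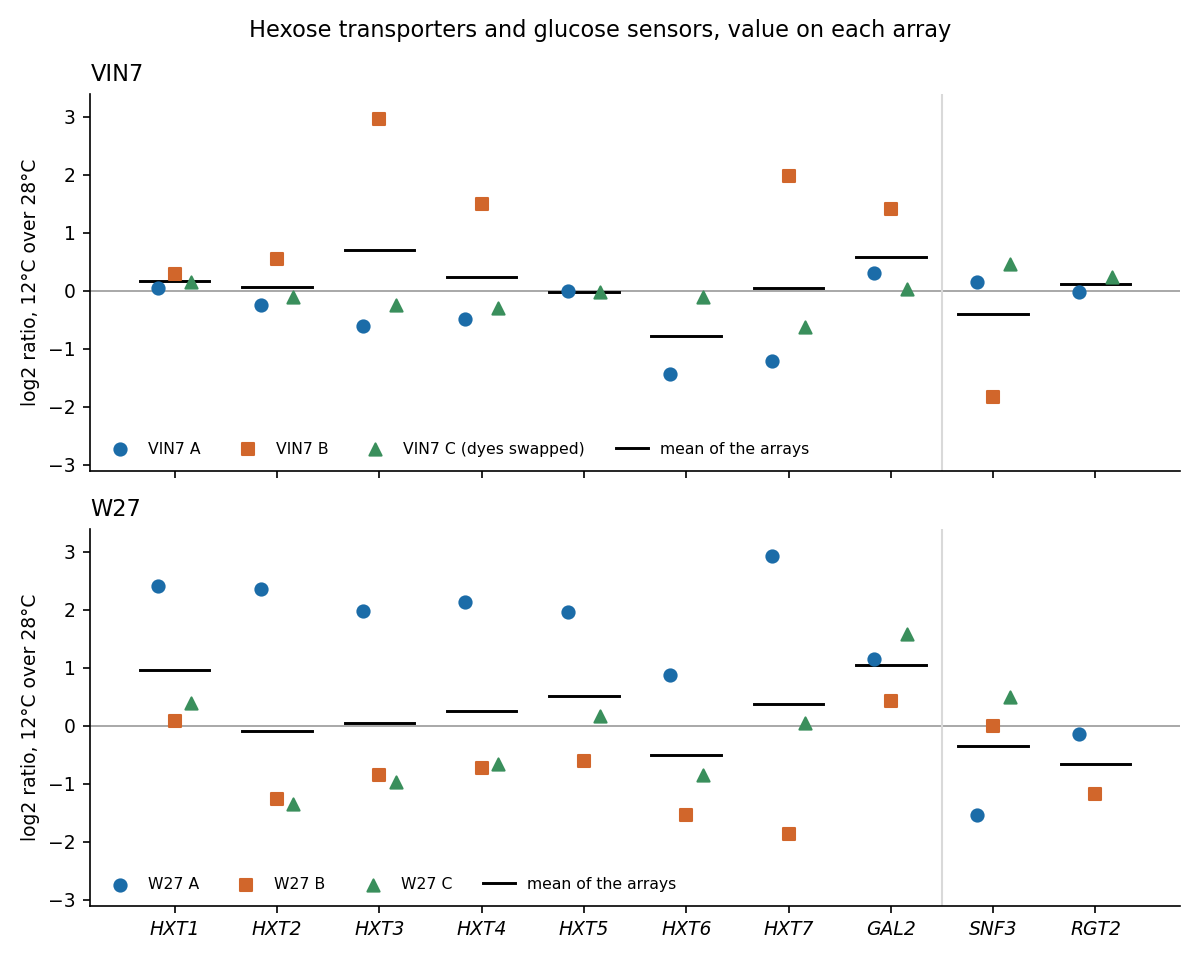
Log2 ratio of 12°C over 28°C (vertical axis) of the 10 genes (horizontal axis) on each array of VIN7 (upper panel) and W27 (lower panel). Symbols are single arrays and the black bars are their means; *HXT1* and *GAL2* lie above 0 on all 6 arrays, whereas *HXT2*, *HXT3* and *HXT4* lie above 0 on VIN7 B and W27 A alone.

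*GAL2* was higher at 12°C on every array. The log2 ratio in VIN7 (YLR081W) was 0.31 on array A, 1.41 on array B and 0.022 on array C. In W27 it was 1.15, 0.43 and 1.59 on arrays A, B and C, the last a 3.00-fold higher signal at 12°C. The 2 strains overlapped, since VIN7 B lay above W27 A and W27 B. The mean was 0.58 ± 0.73 (SD, n = 3) in VIN7 (adjusted p = 0.612 by limma) and 1.05 ± 0.58 (SD, n = 3) in W27 (adjusted p = 0.669 by limma, 95% interval -0.057 to 2.17). Within the arrays it stood between percentile 53.5 of all genes, on VIN7 C, and percentile 94.5, on W27 C. *GAL2* was also the only member whose W27 median reached 2-fold higher, a level that 10.3% of all genes reached. In VIN7, 0 of the 10 had a median 2-fold higher (5.71% of genes) and 0 a median 2-fold lower (4.1%).

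*HXT1*, the low-affinity carrier of high-glucose medium, was likewise above 0 on all 6 arrays, but by little on 5 of them. The VIN7 values (YHR094C) were 0.049, 0.29 and 0.16 on arrays A, B and C. In W27 they were 2.42 on array A against 0.089 on array B and 0.39 on array C. W27 A alone thus set the W27 mean, which was 0.97 ± 1.27 (SD, n = 3) with it and 0.24 without it, and whose adjusted p over all 3 arrays was 0.718 by limma. In VIN7 the mean was 0.17 ± 0.12 (SD, n = 3) with adjusted p = 0.782 by limma, the smallest SD among the members measured on all 3 arrays. Of the 7 members with a value on all 6 arrays, *HXT1* and *GAL2* were above 0 throughout, as were 3.59% of the 2674 genes so measured. Within a strain they were the only members above 0 on all 3 arrays, 2 of 7 in VIN7 (24.4% of genes) and 2 of 9 in W27 (13%). No member was below 0 on all 6 arrays (3.52% of genes) or on the 3 arrays of VIN7 (16.2%) or W27 (18.8%). Turning the sign of VIN7 C or of W27 A would by construction end this run for both genes.

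*HXT3*, the other low-affinity carrier, ranged widely between arrays. Its VIN7 values (YDR345C) were -0.6 on array A, 2.96 on array B and -0.24 on array C. In W27 the values were 1.98, -0.85 and -0.96. VIN7 B and W27 A were thus high, and the other 4 arrays were low in both strains. On VIN7 B the 12°C signal was 7.79-fold higher, at percentile 96.2 of that array, whereas on W27 C the 28°C signal was 1.95-fold higher, at percentile 14.1. The means of 0.71 ± 1.96 in VIN7 and 0.054 ± 1.67 in W27 (SD, n = 3 each) were smaller than their SDs, with adjusted p = 0.708 and 0.989 by limma.

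*HXT2* and *HXT4*, carriers of lower glucose concentrations, had the same signs as *HXT3* on each of the 6 arrays. For *HXT2* (YMR011W) the VIN7 values were -0.25, 0.55 and -0.10, and the W27 values 2.35, -1.26 and -1.34. W27 A thus stood 3.69 above W27 C, the lowest array. *HXT2* was the only member whose W27 median was at least 2-fold lower at 12°C, which held for 10.8% of genes. For *HXT4* (YHR092C) the VIN7 values were -0.48, 1.50 and -0.30, and the W27 values 2.13, -0.74 and -0.655. The strain means were 0.068 ± 0.43 in VIN7 and -0.082 ± 2.11 in W27 for *HXT2*, and 0.24 ± 1.10 and 0.25 ± 1.63 for *HXT4* (SD, n = 3 each). For both genes the W27 arrays enclosed all the VIN7 values.

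The high-affinity carriers *HXT6* and *HXT7* gave the lowest transporter value on 4 of the 6 arrays (VIN7 A, VIN7 C, W27 A and W27 B). The VIN7 values of *HXT7* (YDR342C) were -1.21, 1.98 and -0.63, whereas the W27 values were 2.93, -1.87 and 0.043. Its range of 4.80 over the arrays was the widest of the members, from a 7.64-fold higher signal at 12°C on W27 A to a 3.65-fold higher signal at 28°C on W27 B. *HXT6* (YDR343C) was at -1.44 on VIN7 A and -0.11 on VIN7 C, and at 0.88, -1.54 and -0.85 on W27 A, B and C. It was thus below 0 on 4 of the 5 arrays that measured it, with W27 A as the exception. Its mean was -0.78 ± 0.94 (SD, n = 2) in VIN7 and -0.50 ± 1.25 (SD, n = 3) in W27, with adjusted p = 0.612 and 0.839 by limma. That of *HXT7* was 0.047 ± 1.70 and 0.37 ± 2.42 (SD, n = 3 each).

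These adjacent genes are so alike in sequence that labelled cDNA of one can bind the spot of the other, and their values are not separate measurements. They still differed on the arrays. The 2 spots had the same sign on 4 of 5 shared arrays and were 0.24 apart on VIN7 A, but 2.05 apart on W27 A. Cross-hybridisation is possible among the other *HXT* spots as well, because the family is similar in sequence.

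*HXT5*, the carrier of slow growth and starvation, hardly differed from 0 in VIN7, at -0.009 on array A and -0.02 on array C (YHR096C). In W27 it was at 1.96 on array A, -0.60 on array B and 0.17 on array C. The W27 mean fell from 0.51 ± 1.31 (SD, n = 3) to -0.21 without W27 A, and its adjusted p over all 3 arrays was 0.842 by limma.

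**Figure D2:**
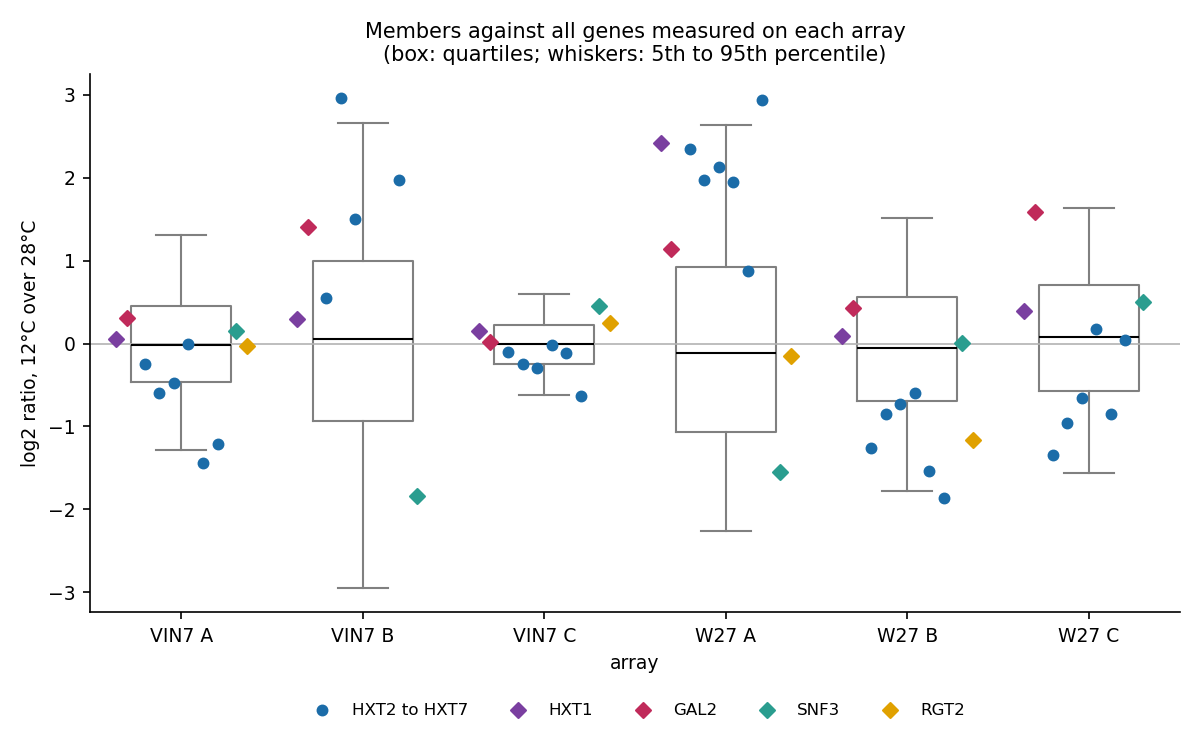
Log2 ratio of 12°C over 28°C (vertical axis) of all genes on each array (boxes for quartiles, whiskers from the 5th to the 95th percentile) with the members drawn as points. All 7 *HXT* genes lie above 0 on W27 A, with a median of 2.13, whereas 1 of the 7 does on VIN7 A, VIN7 C and W27 B.

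Read by array, the values of the 7 *HXT* members mostly ran together. All 7 *HXT* genes were above 0 on W27 A (0.88 to 2.93, median 2.13), and all 5 that were measured were above 0 on VIN7 B (0.29 to 2.96, median 1.50). On VIN7 A, VIN7 C and W27 B only *HXT1* of the 7 was above 0, and the medians were -0.48, -0.11 and -0.85. W27 C lay between, with 3 of 7 above 0 and a median of -0.655. On those arrays 47.1% of all genes (W27 A), 51.8% (VIN7 B), 49.4% (VIN7 A), 48.7% (VIN7 C), 47.6% (W27 B) and 53.2% (W27 C) were above 0. VIN7 B and W27 A had the widest spread over genes (SD 1.71 and 1.49), and over all genes they were not alike (r = -0.10). The part of that spread in the *HXT* values was not tested.

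The signs above 0 on VIN7 B and W27 A and below 0 on VIN7 A, VIN7 C and W27 B were shared by *HXT2*, *HXT3*, *HXT4* and *HXT7*. This sign pattern, which was picked out after the values were seen, was found in 4.39% of the 3055 genes measured on these 5 arrays and in 4 of the 7 members so measured. Between these 4 genes the Pearson r over the 6 arrays was 0.78 to 0.95 for the 6 pairs. The points share arrays, dyes and spread, and the spots can share cDNA. On the 4 arrays other than VIN7 B and W27 A, *HXT1* and *GAL2* lay above each of *HXT2* to *HXT7*. On VIN7 B, in contrast, *HXT1* was the lowest of the 6 transporters measured, and on W27 A *GAL2* was above *HXT6* alone.

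The low-glucose sensor *SNF3* (YDL194W) had the opposite sign to *HXT2*, *HXT3* and *HXT4* on all 6 arrays. The VIN7 values were 0.16, -1.84 and 0.46 on arrays A, B and C. The W27 values were -1.55, 0.002 and 0.51. On W27 B the opposite sign rests on a value next to 0. The arrays on which *HXT2*, *HXT3* and *HXT4* were high were thus those on which *SNF3* was low. Over the 6 arrays r was -0.96 with *HXT3*, -0.94 with *HXT4*, -0.84 with *HXT7* and -0.77 with *HXT2*. With *HXT1* and *GAL2* r was -0.57 and -0.49, and each had the sign of *SNF3* on 4 of 6 arrays. The opposition was picked out after the values were seen, and the share of all genes showing it was not counted. These r use unscaled values, so VIN7 B and W27 A, the arrays of widest spread, weigh most in them. A link between the sensor and the transporters was not tested. VIN7 C, with its narrow spread, placed *SNF3* at percentile 90.0 of its genes. The means were -0.41 ± 1.25 in VIN7 and -0.35 ± 1.07 in W27 (SD, n = 3 each), with adjusted p = 0.748 and 0.879 by limma.

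The high-glucose sensor *RGT2* (YDL138W) had 2 values per strain. They were -0.025 on VIN7 A and 0.24 on VIN7 C, and -0.15 on W27 A and -1.17 on W27 B. Both W27 values lay below both VIN7 values. The means were 0.11 ± 0.19 and -0.66 ± 0.72 (SD, n = 2 each), with adjusted p = 0.895 and 0.784 by limma. Unlike *SNF3*, *RGT2* was not extreme on W27 A, where it stood at percentile 48.8.

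**Figure D3:**
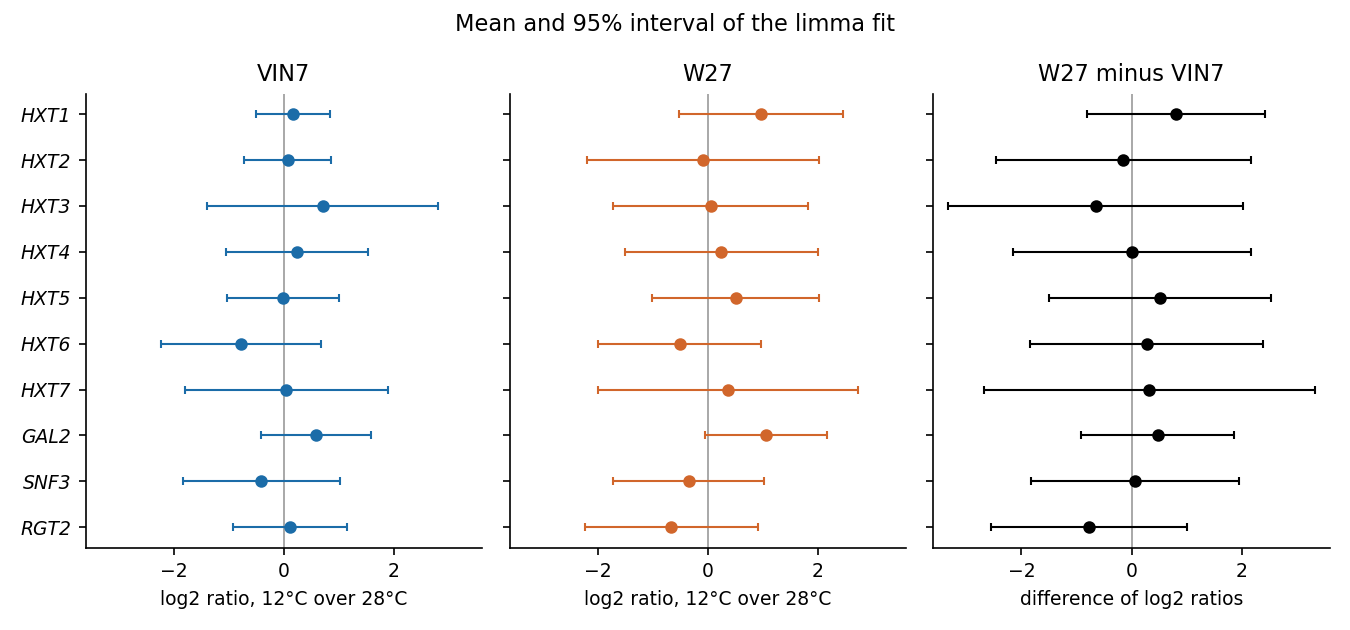
Mean log2 ratio of each gene in VIN7 and W27 and the W27 minus VIN7 difference (horizontal axes, log2 scale) for the 10 genes (vertical axis), with bars for the 95% intervals of the limma fits. Every interval includes 0, and that of *GAL2* in W27 comes closest to excluding it (-0.057 to 2.17).

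The response to 12°C was then compared between the strains. By limma over all 6 arrays, 0 of the 10 genes differed between W27 and VIN7 (0% of 4670 genes tested were called), and 0 of the 10 had an unadjusted p under 0.05, against 3.15% of genes. The W27 minus VIN7 difference was largest for *HXT1*, at 0.80 (standard error 0.70, adjusted p = 0.893 by limma), and lowest for *RGT2*, at -0.77 (standard error 0.72, adjusted p = 0.893). *GAL2* differed by 0.47 (95% interval -0.91 to 1.86), the narrowest interval of the members, and *HXT7* by 0.32 (-2.69 to 3.33), the widest. For 8 of the 10 genes a 2-fold difference in either direction lay within the interval, so they do not show that the strains responded alike. *RGT2* was the only member whose arrays did not overlap between the strains with W27 lower, which 9.81% of genes showed. It had only 2 values per strain, and fewer values are more easily apart, so this share over genes with at least 2 values is not matched to it. With W27 higher, 0 members were apart, against 8.99% of genes. With 3 arrays against 3, an exact permutation test of a single gene cannot give a p below 0.1, and none was run.

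What the 2 strains showed depended on VIN7 B and W27 A. In VIN7, 7 of the 10 means were above 0 with all arrays (48.5% of genes) and 4 of 10 without VIN7 B. *HXT3* went from 0.71 to -0.42, *HXT4* from 0.24 to -0.39, *HXT7* from 0.047 to -0.92 and *SNF3* from -0.41 to 0.31. In W27, 6 of the 10 means were above 0 with all arrays (48.5% of genes) and 3 of 9 without W27 A. Limma on W27 B and C called 1540 of 3938 genes (39.1%) and 4 of the 9 members tested, a share near that of all genes. W27 B and C are the W27 arrays that correlate (r = 0.79), so small p-values follow in part from which array was left out. Without W27 B, 0 genes were called, and without W27 C, 2. In the fit without W27 A, limma called *HXT2* (-1.3, adjusted p = 0.00385), *HXT6* (-1.20, adjusted p = 0.00821) and *HXT3* (-0.91, adjusted p = 0.0191) lower, as it did 19.6% of genes. *GAL2* was called higher (1.01, adjusted p = 0.0282 by limma), as were 19.5% of genes.

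*HXT4* and *HXT7* were below 0 in that fit without passing (-0.695 and -0.91, adjusted p = 0.0549 and 0.0917 by limma), and *HXT1* and *SNF3* were at 0.24 and 0.25 (adjusted p = 0.488 and 0.479). With all 3 W27 arrays weighted by their estimated precision, W27 A had a weight of 0.16 against 2.94 for W27 B and 2.15 for W27 C. The weights are estimated from the same disagreement between arrays, so this fit is not separate evidence. By limma the same 4 genes and *RGT2* (-1.12, adjusted p = 0.0284) were then called, 5 of 10 against 35.6% of all genes. *RGT2* has no value on W27 C, so that its value there rests almost wholly on W27 B. The 95% intervals without W27 A were -1.87 to -0.73 for *HXT2* and 0.31 to 1.71 for *GAL2*. For the other 4 genes the calls rest on W27 B and W27 C alone or nearly so. Limma draws the variance of each gene towards that of all genes, so the adjusted p does not measure a gene's own spread alone. *HXT2*, at -1.26 on W27 B and -1.34 on W27 C, had a standard error of 0.26 without W27 A. 12°C RNA carried Cy5 on every W27 array, and dye and temperature cannot be told apart in W27.

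**Figure D4:**
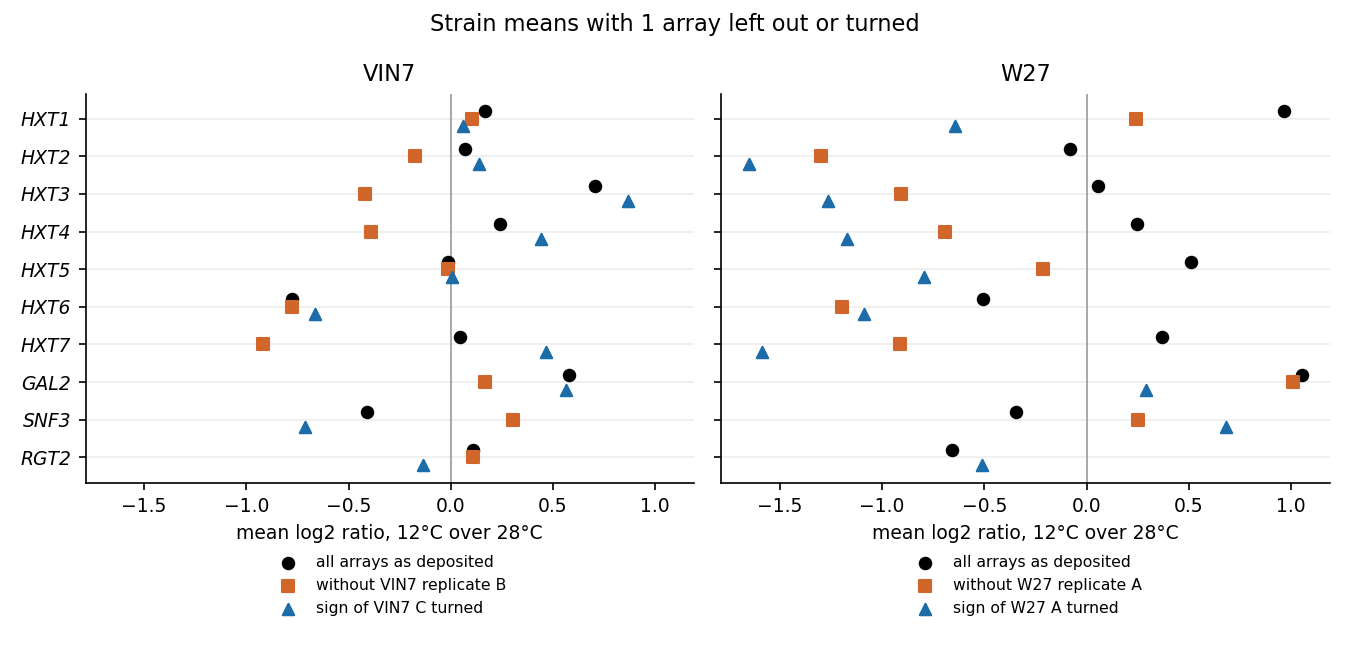
Mean log2 ratio (horizontal axis) of the 10 genes (vertical axis) in VIN7 and W27 with all arrays as deposited and with 1 array changed. VIN7 B or W27 A was left out, or the sign of VIN7 C or W27 A was turned. Without W27 A the means of *HXT2*, *HXT3*, *HXT4*, *HXT6* and *HXT7* lie between -1.3 and -0.695, and *GAL2* stays at 1.01.

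Genes further along the glucose pathway were read from 7 lists of 42 ORFs. The lists cover the other *HXT* genes, the signalling steps from sensors to *HXT* promoters, glucose repression, hexose kinases, the galactose pathway, G-protein coupled sensing and transporter endocytosis. They were compiled from standard yeast gene names, whose pairing with the ORFs was not drawn from the data used here. Of these ORFs, 40 had a row. In VIN7, 0 of 40 passed 5% by limma, 21 had a mean above 0 and the median of the means was 0.072, against -0.025 over all genes. In W27, 0 of 38 passed, 18 were above 0 and the median was -0.021, against -0.027 over all genes. On W27 B and C alone, 3 were called higher and 5 lower of 31 tested, where 19.5% and 19.6% of all genes were called.

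The remaining *HXT* genes did not share the array pattern of *HXT2* to *HXT4* in full. Of these 9, 7 were above 0 on W27 A (median 0.46), 5 on W27 B (0.036) and 1 of 7 on W27 C (-0.35). In VIN7, 2 of 7 were above 0 on array A (median -0.11), 2 of 7 on array B (-0.084) and 6 of 9 on array C (0.245). All 3 hexose kinase ORFs, whose products phosphorylate the sugar after entry, were above 0 on W27 A (1.04 to 3.19), 2 of 3 on VIN7 B, 1 of 3 on VIN7 C, W27 B and W27 C, and 0 of 2 on VIN7 A. Of these, YFR053C followed *HXT2* to *HXT4* sign for sign, at -0.50, 1.3 and -0.19 in VIN7 and 1.56, -0.38 and -0.14 in W27. YGL253W was above 0 on all W27 arrays (3.19, 1.12 and 0.74) and below 0 on the 2 VIN7 arrays that measured it (-0.055 and -0.18). Of the 6 galactose pathway ORFs, 2 were above 0 on W27 A, 4 of 5 on W27 B and 3 of 5 on W27 C, with medians of -0.45, 0.30 and 0.22. In VIN7, 3 of 6 were above 0 on array A, 4 of 5 on array B and 3 of 6 on array C, with medians of 0.054, 0.18 and 0.0645.

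In the glucose repression list the phosphatase gene *GLC7* (YER133W) was the only ORF at least 2-fold higher in the W27 median and above 0 on all 3 arrays, at 1.85, 2.19 and 2.40, and it was at 1.74, 2.35 and -0.2 in VIN7. Its name comes from a gene list that the study drew from these same arrays.

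Likeness to other genes was measured by the Pearson r over the 6 arrays, each divided by its SD over genes, among 2667 genes with all values. With 6 points a high r is common, and it is given as a description. The best match of each of the 7 fully measured members had an r between 0.974 (*GAL2*, with YGR132C) and 0.999 (*HXT2*, with YOR383C). For *GAL2* 1 gene exceeded 0.95, and for *HXT1* 33 genes did. The closest pair of members was *HXT3* and *HXT4* (r = 0.95), and 12 genes other than the members were closer to *HXT3* than *HXT4* was.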

How the data were processed

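Competitive hybridisations of 12°C against 28°C RNA were made on 6 arrays, 3 per strain. The authors scanned the slides with GenePix software and, after background correction, used Acuity for the normalization, a filter on spot flags and a print tip correction, and deposited 1 log2 ratio per ORF and array. The centring is stated only as a log2 ratio value of 1, and no common spread was set. Array medians lie between -0.11 and 0.083. The direction of VIN7 C follows its title and was turned as an alternative, because the deposited values do not state how the swap was handled.

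Values were used as deposited, with missing values left out. Means were tested against 0, and W27 against VIN7, with limma 3.58.1 in R 4.3.3 for genes with at least 2 values per strain (Benjamini-Hochberg, 5%). On simulated data the fit recovered the changed genes when the arrays had an equal, narrow spread. It recovered none of them when each array had independent noise as wide as its real spread over genes. That spread also holds differences that arrays share (r = 0.79 between W27 B and W27 C), so this setting can overstate the noise. The simulation therefore does not give the chance of a call in these data, and a count of 0 does not show that no gene changed. The SAM test was coded here with its 8 possible sign flips. No background or depth per spot was available in the values used, and the number of arrays and their unequal spread limit the precision. Alternatives were centring, scaling, complete values, array weights, a joint model, a dye term, a replicate block, another threshold, each array left out in turn, and VIN7 C or W27 A with its sign turned. The members and the gene lists were chosen with earlier results of these data known. The genes named are the 10 members and the ORFs of the lists that changed by at least 2-fold in the median and in 1 direction on all 3 arrays of a strain. The rule also set 8 pathway genes to be named in any case, YFR053C and YGL253W among them. Their symbols were paired with ORFs from standard yeast gene names and not from the data used here. The others of the 8 are only counted within their lists, so their single values are not shown. The likeness of YFR053C to *HXT2* to *HXT4* was picked out after its values were seen. 0 columns were left unused.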

Additional observations from a re-analysis of the deposited data

How the results depend on the processing

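Of the 10 strain means in VIN7 and the 10 in W27, none changed direction when arrays were centred on their medians or fitted in a joint model. With only genes that had all values, the 7 means left in VIN7 and the 9 in W27 kept theirs. With arrays scaled to a common spread, *HXT2*, *HXT4*, *HXT7* and *SNF3* turned in VIN7 (-0.084, -0.16, -0.70 and 0.081) and *HXT3* in W27 (-0.18). Array weights turned *HXT2*, *HXT3*, *HXT4*, *HXT7* and *SNF3* in VIN7 (-0.16, -0.29, -0.32, -0.85 and 0.15) and *HXT3*, *HXT4*, *HXT5*, *HXT7* and *SNF3* in W27 (-0.81, -0.62, -0.21, -0.94 and 0.16). They also turned 4 of the 10 W27 minus VIN7 differences, *HXT7* (-0.060) among them, and with them 1743 genes were called in W27 and 37 between the strains. With a dye term, *HXT7* was at -0.12 in VIN7 and its difference, 1 of 2 that turned, at -0.015. With the sign of VIN7 C turned, *HXT5* was at 0.0055, *RGT2* at -0.13 and the *HXT7* difference, again 1 of 2 that turned, at -0.096. W27 A was turned as well, because earlier results had shown it to run against the other W27 arrays, and then *HXT1*, *HXT3*, *HXT4*, *HXT5* and *HXT7* were at -0.65, -1.26, -1.17, -0.79 and -1.59 and *SNF3* at 0.68 in W27. Then 6 of the 10 differences turned, among them those of *HXT1*, *HXT7* and *GAL2* (-0.81, -1.63 and -0.29). The mean of *GAL2* stayed above 0 in both strains under all alternatives run. All 6 of its deposited values were above 0, so leaving out or weighting arrays could not have turned it. The cause of these turns was not tested.

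Leaving out single arrays gave VIN7 means from -0.175 to 0.226 for *HXT2*, -0.42 to 1.36 for *HXT3*, -0.39 to 0.60 for *HXT4*, -0.92 to 0.67 for *HXT7* and -0.84 to 0.31 for *SNF3*, with the value on the other side of 0 always that without VIN7 B. W27 means ranged from -1.3 to 0.55 for *HXT2*, -0.91 to 0.56 for *HXT3*, -0.695 to 0.74 for *HXT4*, -0.21 to 1.06 for *HXT5*, -1.20 to 0.0145 for *HXT6*, -0.91 to 1.49 for *HXT7* and -0.77 to 0.25 for *SNF3*. The *HXT6* value above 0 was that without W27 B, and the *HXT2* values above 0 those without W27 B or W27 C. The *HXT7* difference ranged from -0.96 to 1.44. Genes called in W27 ranged from 0 to 1540 (2 without W27 C). The SAM test called 11 genes in VIN7 and 5 in W27. The strain median was 2-fold higher or lower for 500 genes in VIN7 and 1032 in W27. These were 73 and 126 at a log2 ratio of 2, and in VIN7 between 237 (without VIN7 B) and 931 (without VIN7 C), a check added after the data were seen.

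With the replicate letter as a replicate block, 0 of 4155 genes were called between the strains, as without it. The letters share only a name. The deviations of same-lettered arrays from their strain means correlated at -0.11, 0.11 and -0.26 for A, B and C, and VIN7 A correlated best with W27 B (0.13). No spot intensities were used here, so how far signal over background limits single values was not examined, and the missing values leave *RGT2* with 2 arrays per strain.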
